A study of Mus musculus with 20 samples.

Results

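The 8 genes described here carry the acid-base work of the kidney proximal tubule: 4 carbonic anhydrases (Car2, Car4, Car12 and Car14), the sodium-bicarbonate cotransporter Slc4a4, the sodium-proton exchanger Slc9a3, the mitochondrial enzyme Glud1 and the glutamine transporter Slc38a3. They were picked by symbol from the deposited table of gene counts, as 8 of its 55822 genes, and all 8 were among the 16266 genes with enough counts to be tested. In the proximal tubule, protons leave the cell through Slc9a3 and meet filtered bicarbonate, which carbonic anhydrase turns into CO2 and water. The CO2 enters the cell, is hydrated again by cytosolic carbonic anhydrase, and the bicarbonate leaves through Slc4a4 on the blood side. The same cells take up glutamine, partly through Slc38a3, and break it down to ammonium and new bicarbonate, with Glud1 acting on the glutamate formed from it.

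RNA was measured by bulk sequencing of poly(A)-selected, strand-specific libraries from whole kidneys of male C57BL/6J mice, a common inbred strain, aged 8 weeks. Control mice received PBS (phosphate-buffered saline), and the compared mice received puberulic acid, a tropolone made by some Penicillium moulds, at 1 mg per day. A further 10 mice received the dietary supplement Choleste-Help at 1000 mg per day, from a normal or a toxic lot, and every group had 5 sequenced animals. All mice were wild type and had 6 daily doses, with the kidneys taken on day 7 after a day without dosing. The route is given as oral in one description and as gavage or intraperitoneal injection in another, and no label says which mouse had which. The names of the 10 supplement columns show the dose but not the lot. They fall into 2 sets by their prefix, chm_o1000_ and chm_x1000_, and their values are given by prefix, without a test and without a lot.

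The control libraries held 18409877 to 22725274 estimated counts and the puberulic acid libraries 19897287 to 24705587. Values are in CPM, counts of a gene rescaled to a common library size, with library sizes corrected by TMM (trimmed mean of M-values). This correction differed between the groups, at 0.827 to 0.848 for the control libraries against 1.17 to 1.26 for those of treated mice. Scaling by total counts instead moved the middle fold change of the whole table from 0.05 to 0.56 on the log2 scale, so every fold change below is relative to the TMM scale. Puberulic acid replicate 1 stood apart from the other 4 animals of its group, and its values are given wherever it matters. Mitochondrially encoded transcripts took 18.8% to 22.2% of the counts in controls and 10.5% to 13.8% with puberulic acid. All 12 proximal tubule markers fell with puberulic acid (median log2 fold change -3.27), where 31.1% of all tested genes were called lower. Their summed level went from 24204 to 29019 CPM in controls to 2344 to 4422 CPM. None of these markers was at 0. In whole tissue, fewer proximal tubule cells and less RNA of a gene per cell cannot be told apart, and the part that this marker loss has in the values of the 8 genes was not tested.

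With puberulic acid, 7 of the 8 genes fell and none rose. The test was the quasi-likelihood test of edgeR, called at 0.05 after Benjamini-Hochberg adjustment over the whole table. Across all tested genes 65.3% were called, 31.1% lower and 34.2% higher. The median log2 fold change of the 8 genes was -1.33, against 0.05 over all tested genes. Their sizes ran from a 38.0-fold fall of Car14 to a Car2 level that did not pass the test. For 6 of the 8, every puberulic acid animal was below every control, a pattern that 24% of all tested genes showed, and Car2 and Glud1 were the exceptions. With total-count scaling 5 of the 8 were called lower, where 15.5% of all genes were, and Car2 was called higher.

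**Figure D1:**
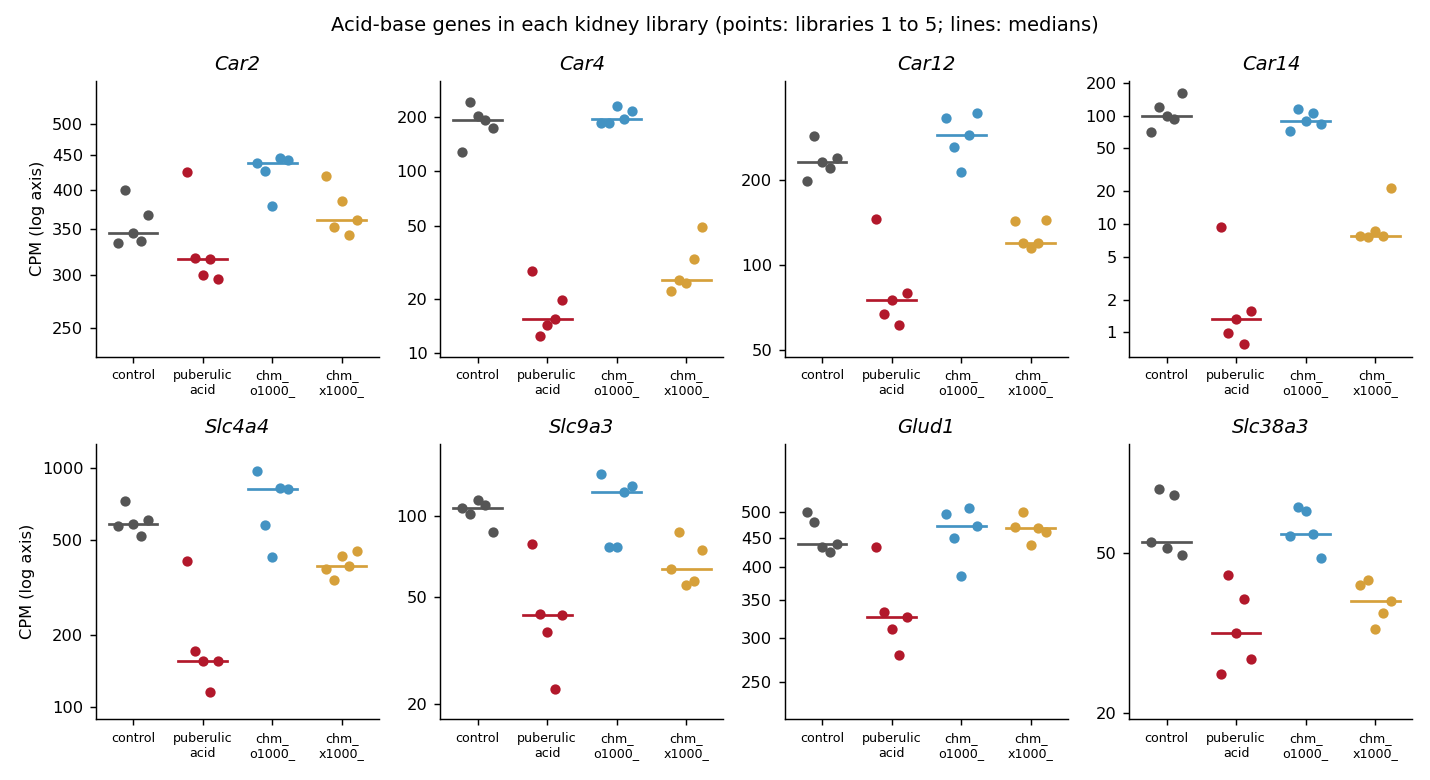
CPM of the 8 genes in each library on a log axis, with 1 point per library and a line at the median of each set of 5. Car14 and Car4 are the genes with the widest gap between control and puberulic acid, while the Car2 ranges overlap and puberulic acid replicate 1 is the top point of its group in every panel but that of Slc38a3.

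**Figure D2:**
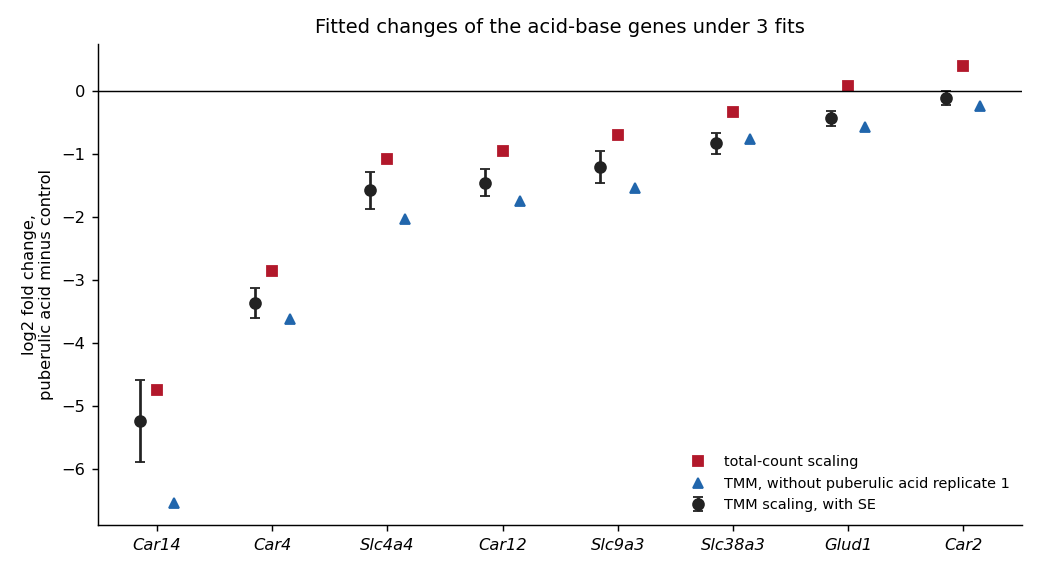
Log2 fold change of puberulic acid against control for the 8 genes, from the TMM-scaled test (circles, with bars of 1 standard error), with total-count scaling (squares) and without puberulic acid replicate 1 (triangles). The circles run from -5.25 for Car14 to -0.11 for Car2, and total-count scaling puts Glud1 and Car2 above 0.

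The stretches just upstream of 4 of the genes are shown because these genes span the range of responses, from the deepest loss to a small one. They are the 250 bases before the annotated start, 5′ to 3′ on the gene's own strand, from RefSeq (GRCm38.p6), with capitals marking the GC box GGGCGG on either strand. The 4 windows are chr3:95904686-95904935 (minus strand) for Car14, chr11:84957504-84957753 (plus) for Car4, chr9:66713436-66713685 (plus) for Car12 and chr14:34310477-34310726 (plus) for Glud1.
Car14: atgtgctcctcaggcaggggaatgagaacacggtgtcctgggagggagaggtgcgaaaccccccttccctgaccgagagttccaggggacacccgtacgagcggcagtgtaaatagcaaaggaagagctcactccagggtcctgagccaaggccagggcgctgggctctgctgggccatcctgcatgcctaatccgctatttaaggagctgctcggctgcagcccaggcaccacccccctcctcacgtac
Car4: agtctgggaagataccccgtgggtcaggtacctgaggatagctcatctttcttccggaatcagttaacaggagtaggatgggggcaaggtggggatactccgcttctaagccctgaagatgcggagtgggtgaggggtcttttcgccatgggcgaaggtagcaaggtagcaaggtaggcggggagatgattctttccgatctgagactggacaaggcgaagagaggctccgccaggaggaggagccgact
Car12: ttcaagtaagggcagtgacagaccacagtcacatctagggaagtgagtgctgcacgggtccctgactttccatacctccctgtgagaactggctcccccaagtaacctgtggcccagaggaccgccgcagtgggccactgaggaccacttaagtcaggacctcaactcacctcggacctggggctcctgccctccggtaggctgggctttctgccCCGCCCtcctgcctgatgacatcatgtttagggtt
Glud1: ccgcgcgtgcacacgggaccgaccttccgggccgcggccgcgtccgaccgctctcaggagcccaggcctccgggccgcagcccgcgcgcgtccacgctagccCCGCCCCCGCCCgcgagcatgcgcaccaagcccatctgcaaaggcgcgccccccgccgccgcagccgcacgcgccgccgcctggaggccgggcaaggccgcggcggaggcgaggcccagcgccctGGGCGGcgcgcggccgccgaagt
The table held 7 such windows for 6 of the 8 genes, including 2 starts of Slc4a4. The Glud1 window is 82% G or C, with 46 CpG pairs and 3 GC boxes, one pair of them running together in a single capital stretch. The Car14 window is 62% G or C with 10 CpG pairs, and the Car4 window 56.4% with 11, and neither holds a GC box. Car12 has 1 GC box and 6 CpG pairs. Of the 7 windows 4 held a GC box (those of Car12, Slc9a3, Glud1 and the upstream start of Slc4a4), against 32.7% of 32851 windows of the same length. The downstream Slc4a4 window held none and is 48.8% G or C, where the upstream one is 82%. The median over all windows is 52.4% G or C. The half-site GTTAAT of HNF1 (6.43% of all windows), the HNF4 sequence CAAAGTCCA (0.384%), the AP-1 sequence TGACTCA (4.46%) and TATAAA (12.4%), each searched on both strands, were in none of the 7. A match of letters describes the window and does not show a bound site.

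Among the carbonic anhydrases, the 3 whose active site faces the outside of the cell fell, and the cytosolic Car2 did not pass the test. Car14 is a transmembrane enzyme of the proximal tubule surface. Its controls held 70.9, 119, 99.3, 92.3 and 160.4 CPM, and the puberulic acid animals 9.46, 0.980, 1.31, 0.774 and 1.57. All 5 treated animals lay far below the lowest control, and replicate 1 lay above the other 4. Means were 108 ± 33.8 and 2.82 ± 3.73 CPM (SD, n = 5 each), and the fitted log2 change was -5.25 (standard error 0.65, adjusted p = 2.1e-05). In replicates 2 to 5 the gene rested on 19 to 49 counts per library, against 1243 to 2470 in controls. Of all tested genes 0.0799% had a change as low or lower.

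Car4, which is held to the cell surface by a lipid anchor, had 127, 241, 202, 190.5 and 174 CPM in controls. With puberulic acid it had 28.4, 12.5, 14.4, 15.4 and 19.6. The groups did not overlap, and replicate 1 was again the highest treated animal, though nearer the rest than for Car14. The level fell 10.3-fold, between means of 187 ± 41.6 and 18.1 ± 6.35 CPM (SD, n = 5 each). The fitted log2 change was -3.37 (standard error 0.24, adjusted p = 3.03e-07), a value that 0.701% of tested genes reached or passed.

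Car12, another transmembrane form that is also found in the distal nephron and collecting duct, lost less. Control values were 199.6, 286, 232, 222 and 240.5 CPM, and treated values 146, 67.3, 75.4, 61.6 and 80.0 CPM. The groups did not overlap, but replicate 1 sat closer to the lowest control than to the highest of the other treated animals. The fall was 2.75-fold, between means of 236 ± 32.0 and 86.0 ± 34.1 CPM (SD, n = 5 each), with a fitted log2 change of -1.46 (standard error 0.22, adjusted p = 8.89e-05).

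Car2, the cytosolic enzyme shared by proximal tubule cells, intercalated cells and red blood cells, had 334, 401, 346, 337 and 367 CPM in controls and 426, 317, 299.9, 317 and 295 with puberulic acid. Replicate 1 was above every control and the other 4 treated animals were below every control. The difference over all 5 did not pass the test (fitted log2 change -0.11, standard error 0.11, adjusted p = 0.407). Without replicate 1 it was -0.24 and passed (adjusted p = 0.0154), and with total-count scaling it was 0.40 in the other direction (adjusted p = 0.00505). Red blood cell markers moved as well, with 5 of the 6 tested called lower and 1 (Epb42) called higher. The shares of all tested genes were 31.1% lower and 34.2% higher. The summed level of these markers was 991 to 3239 CPM in controls and 28.9 to 267 CPM with puberulic acid. The part of red blood cell RNA in the Car2 values was not tested.

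Ratios within a library do not depend on how the libraries are scaled. The ratio of Car4 to Car2 had a median of 0.566 (range 0.381 to 0.601) over the controls and 0.0486 (0.0393 to 0.0668) with puberulic acid. For Car12 to Car2 the medians were 0.659 (0.597 to 0.715) and 0.251 (0.194 to 0.342), and for Car14 to Car2 they were 0.287 and 0.00438. None of these 3 ratios overlapped between the groups. Every treated animal, replicate 1 included, had less of each membrane-bound form relative to Car2 than any control.

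**Figure D3:**
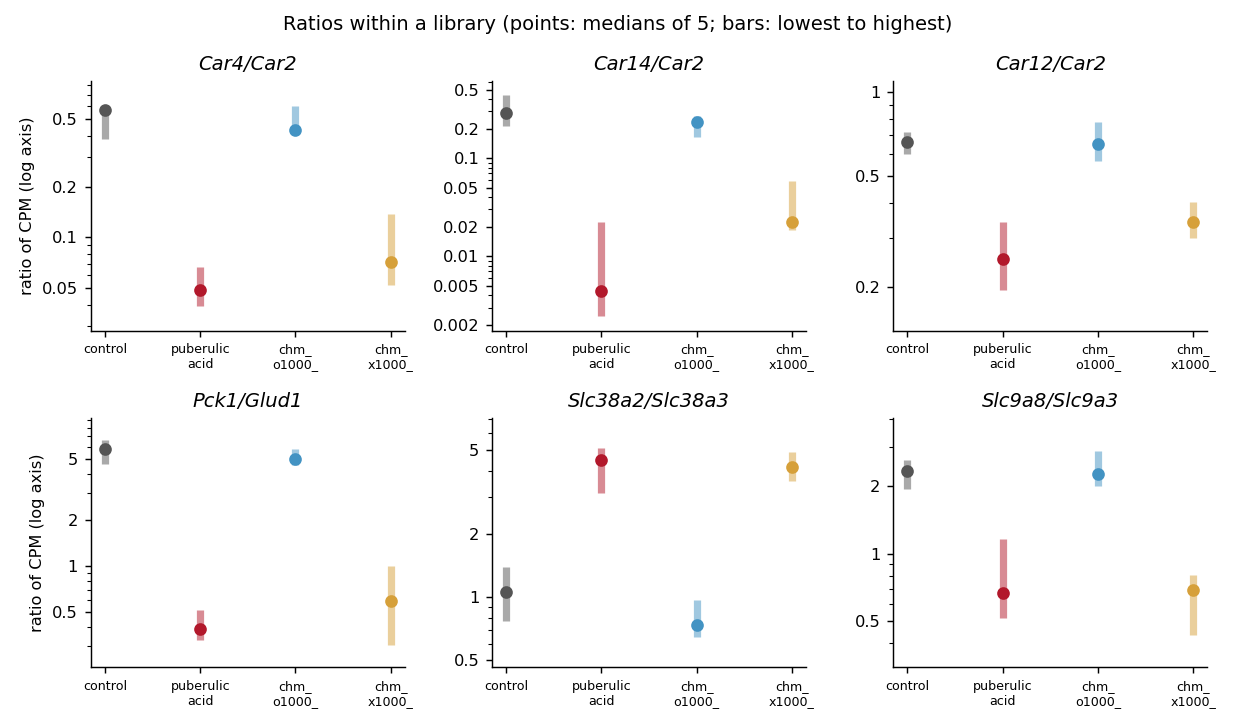
Ratios of CPM between pairs of genes within each library, on a log axis, with points at the median of 5 libraries and bars from the lowest to the highest. Car4, Car12 and Car14 stand lower relative to Car2 with puberulic acid than in controls, as do Pck1 relative to Glud1 and Slc9a8 relative to Slc9a3, whereas Slc38a2 stands higher relative to Slc38a3.

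Both ion transporters of the bicarbonate pathway fell. Slc4a4, the basolateral exit for bicarbonate, had 572, 731, 584, 523 and 611 CPM in controls and 411, 172, 157, 116 and 155 with puberulic acid. The groups did not overlap, and replicate 1 kept 67.9% of the control mean where the others kept 19.1% to 28.5%. Means of 604 ± 77.8 and 202 ± 118 CPM (SD, n = 5 each) made a 2.99-fold fall, with a fitted log2 change of -1.58 (standard error 0.30, adjusted p = 0.000527). Slc9a3, the apical proton exit also called NHE3, had 107, 102, 115, 111 and 87.1 CPM in controls. Its treated values were 78.9, 43.3, 37.1, 22.7 and 42.8 CPM. These groups did not overlap either, though replicate 1 lay just under the lowest control. The fall was 2.31-fold, between means of 104 ± 10.7 and 45.0 ± 20.7 CPM (SD, n = 5 each), and the fitted log2 change was -1.21 (standard error 0.25, adjusted p = 0.00122).

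The 2 genes of glutamine handling had smaller fitted changes than the ion transporters and the membrane-bound carbonic anhydrases, and these differences between genes were not tested. Glud1, the glutamate dehydrogenase that releases ammonium inside mitochondria, had 500.3, 480.4, 434, 425 and 439 CPM in controls and 434, 334, 311, 279 and 327 with puberulic acid. Replicate 1 lay inside the control range and the other 4 lay below it. Means of 456 ± 32.6 and 337 ± 58.4 CPM (SD, n = 5 each) made a 1.35-fold fall, with a fitted log2 change of -0.44 (standard error 0.12, adjusted p = 0.00556). With total-count scaling the value was 0.07 and did not pass (adjusted p = 0.575), so the call rests on the scaling.

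Slc38a3, which carries glutamine into the cell from the blood side, had 53.4, 72.1, 51.7, 69.9 and 49.5 CPM in controls and 25.1, 44.0, 31.7, 38.4 and 27.3 CPM with puberulic acid. The groups did not overlap, and here replicate 1 was the lowest treated animal. The level fell 1.78-fold, between means of 59.3 ± 10.8 and 33.3 ± 7.86 CPM (SD, n = 5 each), with a fitted log2 change of -0.83 (standard error 0.17, adjusted p = 0.000941). With total-count scaling it was -0.33 and did not pass (adjusted p = 0.0904).

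**Figure D4:**
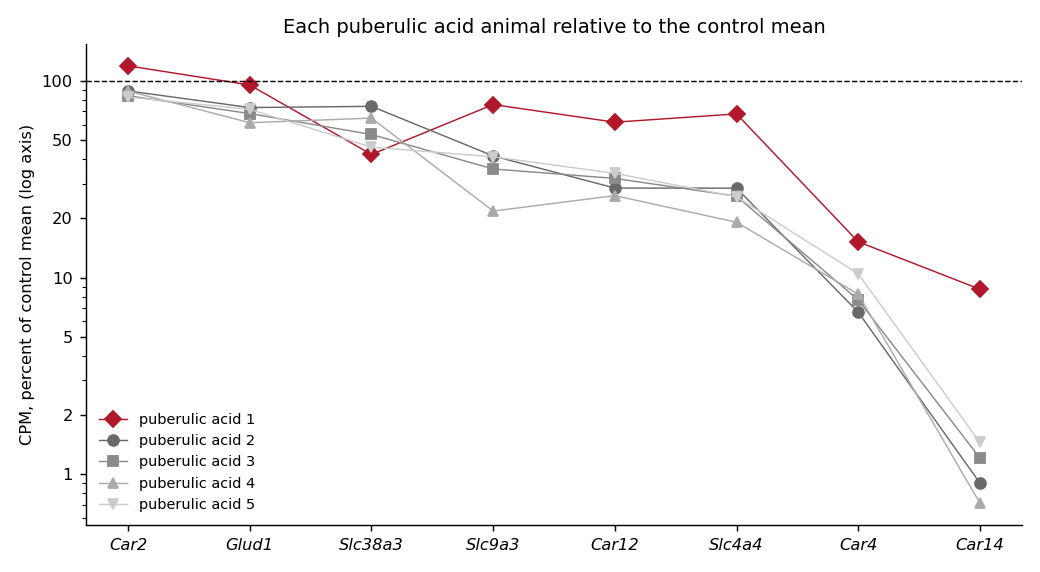
Level of each gene in the 5 puberulic acid animals as a percentage of its control mean, on a log axis, with 1 line per animal and a dashed line at the control mean. Replicate 1 is the highest animal for 7 genes, at 119% for Car2, 95.3% for Glud1 and 75.8% for Slc9a3, and the lowest for Slc38a3, at 42.3%.

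The spread among the treated animals was uneven across the 8 genes. Replicate 1 kept 61.7% of the control mean for Car12, where the other 4 kept 26.1% to 33.9%. For Car14 it kept 8.73%, where the others kept 0.71% to 1.45%. Without replicate 1 all 8 genes were called lower, where 32.5% of all genes tested in that fit were, and the log2 fold changes became -6.55 for Car14, -3.61 for Car4, -2.03 for Slc4a4, -1.75 for Car12 and -1.54 for Slc9a3. Slc38a3 went the other way, to -0.77.

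Levels of different genes were compared per kilobase of annotated exon. In controls Car2 was the most abundant, at 147 CPM per kilobase, followed by Glud1 (108), Car4 (95.1), Slc4a4 (55.9), Car14 (42.6), Car12 (31.1), Slc9a3 (18.9) and Slc38a3 (11.2). The control ranges of Glud1 and Car4 overlapped, as did those of Car4 and Slc4a4, of Slc4a4 and Car14 and of Car14 and Car12, so these neighbours in the order are not separated. With puberulic acid Car2 (137) and Glud1 (80.0) stayed at the top, Car4 was at 9.18 and Car14, at 1.11, was the lowest of the 8.

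Other genes of bicarbonate reclamation moved in the same comparison. Of 13 partners of the pathway 7 fell and 1 rose, with a median log2 fold change of -0.72, and with total-count scaling 6 fell and 5 rose. The shares of all tested genes to read such list counts against are 31.1% lower and 34.2% higher with TMM, and 15.5% lower and 56.4% higher with total-count scaling. Slc9a8, another sodium-proton exchanger of the proximal brush border, fell from 243 ± 42.0 to 30.0 ± 6.22 CPM (SD, n = 5 each), with -3.02 on the log2 scale (adjusted p = 5e-08). The ratio of Slc9a8 to Slc9a3 went from a median of 2.35 (1.93 to 2.61) to 0.671 (0.517 to 1.16). Pdzk1, a scaffold of brush border transporters, fell from 1299 to 212 CPM (log2 fold change -2.61). Slc9a3r1, which encodes the scaffold NHERF1 that binds Slc9a3, fell from 426 to 194 CPM (-1.13), and the water channel Aqp1 from 901 to 285 CPM (-1.66). Ahcyl1, whose product IRBIT activates Slc4a4, fell from 246 to 104 CPM (-1.23). The riser was Car13, a cytosolic carbonic anhydrase, with means of 2.14 ± 0.366 and 16.5 ± 1.14 CPM (SD, n = 5 each) and a fitted log2 change of 2.94 (adjusted p = 1.89e-08). Its ratio to Car2 went from a median of 0.00581 to 0.0528.

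Over the other carbonic anhydrases, which include Car13, 1 of 9 tested genes rose and 4 fell, and with total-count scaling 2 rose and 2 fell, the median going from -0.62 to -0.11. Car15, a lipid-anchored form, fell from 131 to 75.7 CPM (log2 fold change -0.79, adjusted p = 0.000115), and Car5a, Car7 and Car11 were under 5 CPM on average in both groups. The Car11 call was lost in 10 of 19 alternatives. Of 8 other SLC4 transporters 2 fell and 2 rose, each share below that of all tested genes (31.1% lower, 34.2% higher), so the counts are no result about the family. Slc4a9 had a log2 fold change of -1.32 and Slc4a3 -0.57, while Slc4a11 had 1.74 and Slc4a7 0.47. The Slc4a7 call was lost in 10 of 19 alternatives, and that of Slc4a3 with total-count scaling. Total-count scaling turned the median of the SLC4 list from -0.36 to 0.15, with 4 risers and 1 faller, and without puberulic acid replicate 1 there were 5 fallers and 3 risers. Of 8 other SLC9 exchangers 3 fell, Slc9a8 and Slc9a2 among them, and 1 rose (Slc9a5, near 1 CPM), with a median of 0.14, and total-count scaling gave 2 fallers and 5 risers. The share of fallers was near that of all genes (31.1%).

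The ammonia side of the pathway held falls and rises in the same animals. Of 19 tested genes of ammonia production and glutamine supply 14 fell and 4 rose (all genes 31.1% and 34.2%), with a median log2 fold change of -0.97, and with total-count scaling 10 fell and 6 rose. Pck1, the enzyme that draws the carbon of glutamine towards glucose, fell from 2599 ± 452 to 135 ± 31.8 CPM (SD, n = 5 each), with -4.27 on the log2 scale (adjusted p = 1.39e-08). Its ratio to Glud1 went from a median of 5.75 to 0.387. The dicarboxylate carriers Slc13a3 (-3.02), Slc25a10 (-2.77) and Slc13a2 (-2.14) fell, as did the apical neutral amino acid transporter Slc6a19 (-2.17). Glul, which consumes ammonia to make glutamine, fell from 616 to 256 CPM (-1.27), so the list holds enzymes acting in opposite directions.

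Among the risers were the amino acid transporters Slc38a1, Slc38a2 and Slc1a5. Slc38a2, a general glutamine transporter of the Slc38a3 family, rose from 63.7 to 133 CPM (1.06), and its ratio to Slc38a3 went from 1.05 (0.770 to 1.39) to 4.49 (3.12 to 5.09). Slc38a1 rose from 3.60 to 12.7 CPM (1.82), and its ratio to Slc38a3 from a median of 0.0624 to 0.432. The ranges of both ratios were separate in the 2 groups. Slc1a5, which exchanges neutral amino acids including glutamine, rose from 37.8 to 57.1 CPM (0.59, adjusted p = 0.00246).

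**Figure D5:**
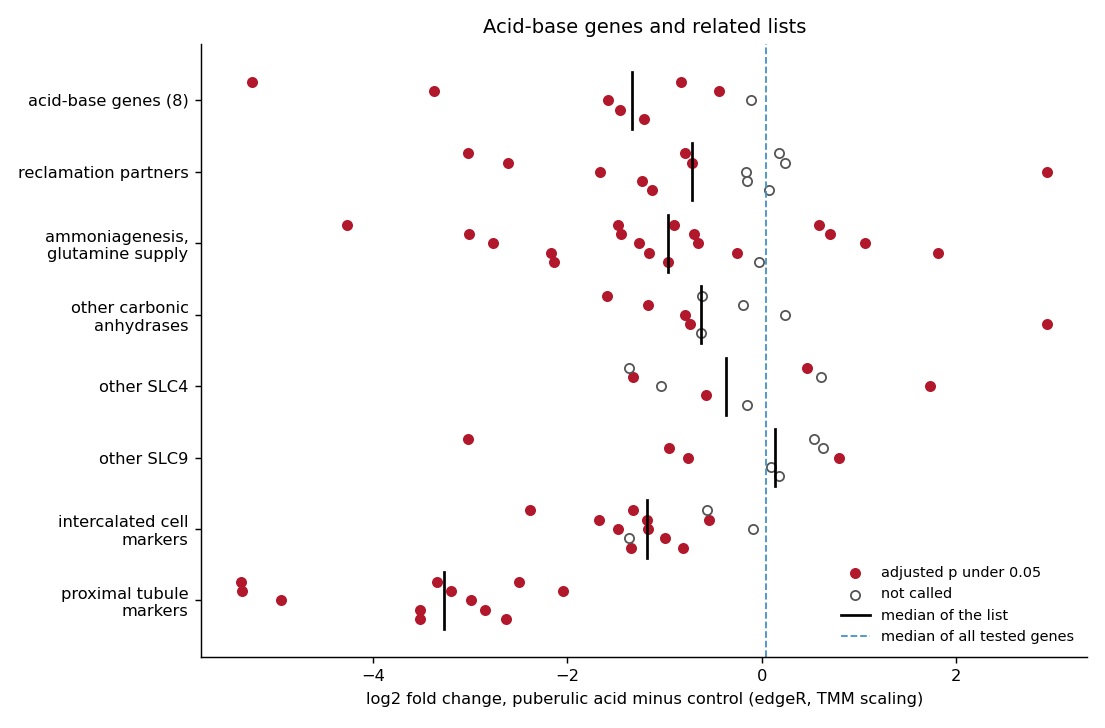
Log2 fold change of puberulic acid against control for the 8 genes and the genes of 7 related lists, with filled points for genes called, open points for the rest, a black line at each list's median and a dashed line at the median of all tested genes. The ammonia list has 14 called genes to the left of 0 and 4 to the right, and all 12 proximal tubule markers lie to the left of -2.

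Car2 and Car12 are also made in the collecting duct, whose intercalated cells secrete acid or base. Of 13 intercalated cell markers 10 fell and none rose, where 31.1% of all genes fell (median log2 fold change -1.18), and their summed level went from 896 to 1067 CPM in controls to 295 to 754 CPM with puberulic acid. Rhcg, an ammonia channel of these cells, fell from 139 to 43.5 CPM (-1.67), Rhbg had -1.48, the anion exchanger gene Slc26a4 -1.35 and the proton pump subunit Atp6v1b1 -1.18. Slc4a1, the anion exchanger of acid-secreting cells and red blood cells, did not pass over all 5 animals (-1.37, adjusted p = 0.151) and did without puberulic acid replicate 1 (-3.30) and with the replicate number as a block (-2.74). With total-count scaling 8 fell and 1, Atp6v0d2, rose. None of the markers was at 0, and their part in the Car2 and Car12 values was not tested. Of the markers of other cell types, 5 of 7 for the thick ascending limb and distal tubule fell, as did 6 of 7 for principal cells, where 31.1% of all genes fell. Podocyte and endothelial markers had 1 of 6 called lower each, below the share of all genes. Of the fibroblast markers 5 of 6 rose, and of the macrophage and leukocyte markers 4 of 8, where 34.2% of all genes rose.

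The supplement columns are given by prefix. In the chm_x1000_ columns Car14 held 7.78, 7.64, 8.64, 7.76 and 21.3 CPM and Car4 22.1, 25.2, 24.4, 32.9 and 49.5 CPM. All 5 were below the lowest control for both genes, and also for Car12, Slc4a4 and Slc38a3, while 4 of 5 were for Slc9a3. In the same columns the proximal tubule markers summed to 4310 to 7174 CPM, against 24204 to 29019 in controls, and the fibroblast markers to 716 to 1651 CPM, against 128 to 191, and their part in these values was not tested. Slc4a4 ranged from 340.1 to 449 CPM and Car12 from 116 to 145 CPM, both under the control ranges. Slc38a3 held 32.4 to 42.9 CPM and Slc9a3 55.3 to 87.1 CPM. Glud1 held 437 to 501 CPM, with all 5 columns above the highest puberulic acid animal. Car2 held 344 to 419.6 CPM, with no column below the control range. The ratio of Car4 to Car2 had a median of 0.0715 there, and that of Slc38a2 to Slc38a3 a median of 4.15.

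In the chm_o1000_ columns the proximal tubule markers summed to 28028 to 31139 CPM and the fibroblast markers to 130.4 to 239 CPM. Car4 held 184 to 227 CPM and Car14 71.8 to 115 CPM, all inside the control ranges. Slc4a4 held 976, 578, 425, 825 and 819 CPM and Slc9a3 143, 76.7, 76.6, 123 and 129.9 CPM. Columns 1, 4 and 5 were above every control for both genes, and columns 2 and 3 were lower. Car2 was above every control in 4 of 5 columns, at 379.5 to 446 CPM over all 5. Red blood cell markers summed to 161 to 524 CPM in these columns and to 70.5 to 279.7 CPM in the chm_x1000_ columns, all below the 991 to 3239 CPM of controls, and their part in the Car2 values was not tested. Car12 held 334, 264, 215, 289 and 346 CPM, with columns 1, 4 and 5 above every control. Glud1 ran from 386 to 509 CPM and Slc38a3 from 48.8 to 65.2 CPM, each with 1 column below the lowest control. The same ratios had medians of 0.433 and 0.740.

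The genes with the most similar pattern were found for each of the 8 by the mean absolute difference of log2(CPM + 0.5), centred on the control mean, over the 10 control and puberulic acid samples, among 9483 tested genes of at least 10 CPM. Car14 was closest to Slc34a1 (0.191), the phosphate transporter of the brush border, then Miox (0.288) and G6pc (0.303). Car4 was closest to Acsm1 (0.151), Cmbl (0.174) and Lrp2 (0.181), the endocytic receptor megalin. Slc4a4 was nearest to Mturn (0.145), Rab11fip3 (0.149) and Sgk2 (0.153), and Slc9a3 to Pgpep1 (0.126), Coq8a (0.138) and Atp6v1b1 (0.139). Car12 was nearest to Gabarapl1 (0.0962), Pfkm (0.0963) and Klk1 (0.0980). The smaller distances of Glud1 to Opa1 (0.0536), Tcp11l2 and Ube4a, and of Car2 to Hdlbp (0.0598), Cldn12 and Ttc21b, belong to genes that moved little. Slc38a3 was nearest to Vps13d (0.105), Methig1 and Sh3glb2. Klk1 and Methig1 have close relatives in the genome, with which they may share reads. Of these 24 genes 10 were again among the nearest without puberulic acid replicate 1, so the matches depend on that animal.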

How the data were processed

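Kidney RNA of 20 mice was sequenced, and 1 table of 55822 genes by 20 columns was used. The authors deposited estimated counts for each gene, which are not whole numbers, and the submitters' processing notes name fastp 0.22.0, FastQC 0.12.1, MultiQC 1.28, Salmon 1.10.3, DESeq2 and the build GRCm39, with no roles given. The annotation is not given in the sources used here. Ensembl identifiers were matched to symbols for 51344 genes.

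Counts were rounded, filtered with filterByExpr, scaled with TMM and tested with glmQLFit and glmQLFTest of edgeR 4.0.16 (limma 3.58.1, R 4.3.3) on the 5 control and 5 puberulic acid samples, without covariates. Benjamini-Hochberg adjustment covered all 16266 genes, with calls under 0.05. The standard error is the log2 fold change over the square root of F. The script was tested on simulated data. P-values weigh the difference between the groups against the spread between these animals. A floor of 3 counts was 0.158 to 0.195 CPM in controls and 0.0964 to 0.128 CPM with puberulic acid, and covers counting error only.

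The 8 genes and the 14 gene lists were chosen with earlier results of these data known. Genes named are the 8, genes of the lists, and for each of the 8 the 3 nearest patterns with a symbol. Counts of calls per list are read beside those of all genes, and some genes of the lists are not reported here. Exon lengths came from GENCODE M21 (GRCm38), a different build from the counts, so no gene coordinates are given, and promoter windows carry the coordinates of their own table. Same-numbered animals of different groups are different mice, so the numbers were not used to pair them. The alternatives were other scalings and filters, DESeq2 1.42.0, a robust fit, leaving out abundant genes, a replicate block and leaving out each animal. Columns of the supplement groups entered no test.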

Additional observations from a re-analysis of the deposited data

Results flagged for a closer look

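In 4 of the 16 sets of 5 control or puberulic acid values of the 8 genes, 1 animal stood far from the others of its group, with a gap to its nearest neighbour of over 0.71 of the whole range. Chance gives about 1 such set in 20. All 4 were puberulic acid replicate 1, as the highest animal. Car2 was at 426 CPM there, with the other 4 at 295 to 317. Car12 was at 146 CPM, with the others at 61.6 to 80.0. Car14 was at 9.46 CPM, with the others at 0.774 to 1.57. Slc4a4 was at 411 CPM, with the others at 116 to 172. The 4 sets come from the same library and are not independent.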

How the results depend on the processing

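Car4, Car12, Car14, Slc4a4 and Slc9a3 kept their direction and their call in all 19 alternatives. Total-count scaling had the widest effect: 9179 genes were called higher and 2526 lower, against 5564 and 5058, Car2 turned to 0.40, Glud1 to 0.0738 and the marker Atp6v0d2 to 0.41, and Slc38a3 lost its call. Of the 8 genes, 5 to 7 were called lower with other settings and 7 to 8 when each animal was left out. Leaving out an animal gave 10104 to 11108 genes called, 5103 to 5842 higher and 4881 to 5395 lower, against 10622 in all. Without puberulic acid replicate 1, Car2 passed at -0.24. Other settings gave 9960 (1 CPM filter) to 12095 (DESeq2) calls. With a replicate block 10325 genes and 7 of the 8 were called. Deviations of same-numbered animals correlated at -0.174 to 0.0331, and 0 of 5 animals matched best with their own number. Among the other genes named, the calls of Car11 and Slc4a7 were lost in 10 of 19 alternatives each, that of Slc9a5 without puberulic acid replicate 3 or 4, and those of Slc9a3r2, Car5a, Slc7a8 and Slc4a3 with total-count scaling, and those of Slc4a1, Aqp6 and Atp6v0d2 were gained without puberulic acid replicate 1, the first pair also with the replicate block (-2.74 and -0.77). Counts in the small lists moved with single animals: SLC4 risers went from 2 to 1 without control replicate 2, 3 or 4 or puberulic acid replicate 2, 3 or 4, and the SLC9 riser was lost without puberulic acid replicate 3 or 4. It became 2 without control replicate 4 or puberulic acid replicate 1, and the riser of the reclamation and carbonic anhydrase lists became 2 without control replicate 1. Endothelial fallers went from 1 to 2 without control replicate 1 or 2 or puberulic acid replicate 4 or 5. The podocyte call was lost without control replicate 3, 4 or 5 or puberulic acid replicate 3. With total-count scaling 2 distal tubule markers rose and 2 fell. The comparison of nearest genes was added after seeing the data: 23 of 24 were shared with total-count scaling. Car14 rests on 19 to 49 counts in 4 treated libraries, which limits the precision of its fold change.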
